A study of Mus musculus with 22 samples.

Results

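Integrins are surface receptors built from an alpha and a beta subunit, and the 10 subunit genes described here are those named for the adhesion receptors of endothelium and blood: *Itgb1*, *Itga5*, *Itgav*, *Itga6*, *Itga4*, *Itga2b*, *Itgb3*, *Itgb2*, *Itgam* and *Itgal*. They were chosen by name, with earlier results of these data known. They are 10 of the 24454 gene symbols in the count table, and all of them had counts in at least 1 library. The libraries were made by SMART-Seq2, a full-length cDNA method, from 25 sorted cells each of the C57BL/6 mouse embryo's aorta-gonad-mesonephros region (AGM), where blood stem cells emerge from endothelium. All cells were sorted as VE-cadherin positive, so every population shares that gate. It was divided by the surface levels of CD44, a hyaluronan receptor, and Kit, a receptor tyrosine kinase.

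CD44Neg cells, labelled as endothelial, gave 10 libraries, of which 4 were from E9.5, 3 from E10 and 3 from E11, and CD44LowKitNeg cells, labelled as hemogenic endothelium, gave 6 (1, 2 and 3 at these stages). CD44LowKitPos cells, labelled Pre-HSPC for precursors of hematopoietic stem and progenitor cells, gave 3 libraries (1 at E9.5 and 2 at E10), and CD44High cells, labelled HSPC, gave 3 (all at E11). The labels name no other allele and no treatment. The labels do not tie libraries to embryos or litters, so p-values measure the spread between these pools of cells only. CD44High and CD44LowKitPos share no stage, and their difference and that of stage cannot be told apart.

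An integrin binds matrix or a counter-receptor only as a pair, and the beta subunit decides which alpha chains can reach the surface. Beta 1 pairs with many alpha chains, among them alpha 5 for fibronectin, alpha 6 for laminin and alpha 4 for fibronectin and VCAM1. Alpha V is the vitronectin receptor chain and pairs with beta 3 or beta 1, while alpha IIb (CD41, an early blood marker and the platelet fibrinogen receptor chain) pairs with beta 3 (CD61). Beta 2 is restricted to leukocytes and pairs with alpha M (CD11b) and alpha L (CD11a).

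The genes lie on 6 chromosomes of GRCm38 (mm10), the build named in the submitters' processing notes, with positions from GENCODE: *Itga5* at chr15:103344286-103366763, *Itgb1* at chr8:128685654-128733200, *Itgav* at chr2:83724397-83806916, *Itga6* at chr2:71745616-71858416, *Itga4* at chr2:79255426-79333123, *Itga2b* at chr11:102453297-102470122, *Itgb3* at chr11:104608000-104670476, *Itgb2* at chr10:77530252-77565708, *Itgam* at chr7:128062640-128118491 and *Itgal* at chr7:127296260-127335138. Reads were counted over exons, and the exons of *Itga4* share 1124 bases (8.04%) with *Cerkl* on the other strand. Those of *Itgam* share 68.67% with the gene model *Gm49368* on the same strand and those of *Itgav* share 5.90% with *Gm13684* on the other strand, neither of which is in the count table. The strand setting of the counting is not given in the sources used here, so *Itga4* and *Itgav* are uncertain to that extent. For *Itgam*, which shares its strand with *Gm49368*, the uncertainty lies in the annotation used for counting, which is not given either.

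The 250 bases before the transcription start are shown for 4 members, a pair called higher in CD44High than in CD44Neg (*Itga4* and *Itgam*) and a pair called lower there (*Itgb1* and *Itga5*). They are RefSeq sequences of GRCm38.p6, and 6 of the 10 members matched the promoter table (*Itga2b* and *Itgav* also). The genes *Itgb3*, *Itga6*, *Itgb2* and *Itgal* were not matched. Each sequence reads 5′ to 3′ on the strand of its gene, and capitals mark matches to 4 short motifs searched on both strands: AGATAA for GATA factors, TGTGGT for RUNX factors, GAGGAA for PU.1 and CCGGAA for other ETS factors (the last 2 end in the same 4 letters and cannot match at the same place).
Itga4, chr2:79255176-79255425, plus strand: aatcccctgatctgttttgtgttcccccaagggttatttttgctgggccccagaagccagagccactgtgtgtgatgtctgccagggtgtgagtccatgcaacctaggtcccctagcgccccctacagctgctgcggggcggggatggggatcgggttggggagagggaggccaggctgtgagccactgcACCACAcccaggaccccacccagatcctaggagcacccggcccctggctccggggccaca
Itgam, chr7:128062390-128062639, plus strand: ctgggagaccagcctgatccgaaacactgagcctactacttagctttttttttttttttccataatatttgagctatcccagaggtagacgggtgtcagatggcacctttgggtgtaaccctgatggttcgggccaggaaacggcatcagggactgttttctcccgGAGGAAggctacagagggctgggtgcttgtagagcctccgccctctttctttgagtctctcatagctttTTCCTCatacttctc
Itgb1, chr8:128685404-128685653, plus strand: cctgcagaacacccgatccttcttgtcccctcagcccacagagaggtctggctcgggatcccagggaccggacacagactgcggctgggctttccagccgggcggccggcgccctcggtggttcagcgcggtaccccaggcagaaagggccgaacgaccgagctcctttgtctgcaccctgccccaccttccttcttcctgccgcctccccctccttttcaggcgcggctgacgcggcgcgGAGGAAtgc
Itga5, chr15:103366792-103367041, minus strand: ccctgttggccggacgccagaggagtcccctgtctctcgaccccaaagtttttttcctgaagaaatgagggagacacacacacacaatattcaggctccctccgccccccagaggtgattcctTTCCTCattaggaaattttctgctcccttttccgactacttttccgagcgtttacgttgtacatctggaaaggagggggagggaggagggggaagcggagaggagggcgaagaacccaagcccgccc
The *Itga4* window held 1 RUNX match, 60 bases before the start and on the reverse strand. *Itgam* held 2 PU.1 matches, while *Itgb1* and *Itga5* held 1 each and *Itga2b* and *Itgav*, not shown, 2 each. Among 32851 promoter windows of the same length, 14.0% held the RUNX letters, 23.3% the PU.1 letters, 9.99% the GATA letters and 12% the ETS letters. PU.1 matches were thus found in both pairs, and no GATA or ETS match was found in the 6 windows.

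Between 3912350 and 8657546 reads were counted per library, and a count of 0 allows up to 3 counts, or 0.347 to 0.767 in CPM, the count scaled to the library's total. Without molecular identifiers in the reads, such limits and the intervals below cover counting error only. Levels are given as CPM after TMM scaling (normalized CPM), as mean ± SD over libraries. *Cd44* RNA set CD44Neg apart, as its lowest normalized CPM in the other populations (158) lay above its highest in CD44Neg (58.9). It did not separate the low from the high sort, with means of 254 in CD44LowKitNeg, 257 in CD44LowKitPos and 268 in CD44High. *Kit* RNA was highest in CD44LowKitPos, at 173.5 to 269.7 normalized CPM, and reached at most 120.2 in a library of the other populations. *Cdh5*, which encodes VE-cadherin, had 0 counts in all 3 CD44High libraries, although these cells were sorted as VE-cadherin positive, and the summed level of 10 endothelial markers was 17.02 to 78.8 normalized CPM there against 4046 to 7093 in CD44Neg. CD44LowKitPos, which is called a blood population here, together with CD44High, after its label only, held 859 to 2207 of these endothelial markers beside 641 to 1664 of 10 blood markers. The CD44High libraries also held 11 of 12 macrophage markers, summing to 3760 to 6086 normalized CPM, against 168 to 229.996 in CD44LowKitPos, 0 to 72.4 in CD44LowKitNeg and 1.21 to 16.95 in CD44Neg.

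**Figure D1:**
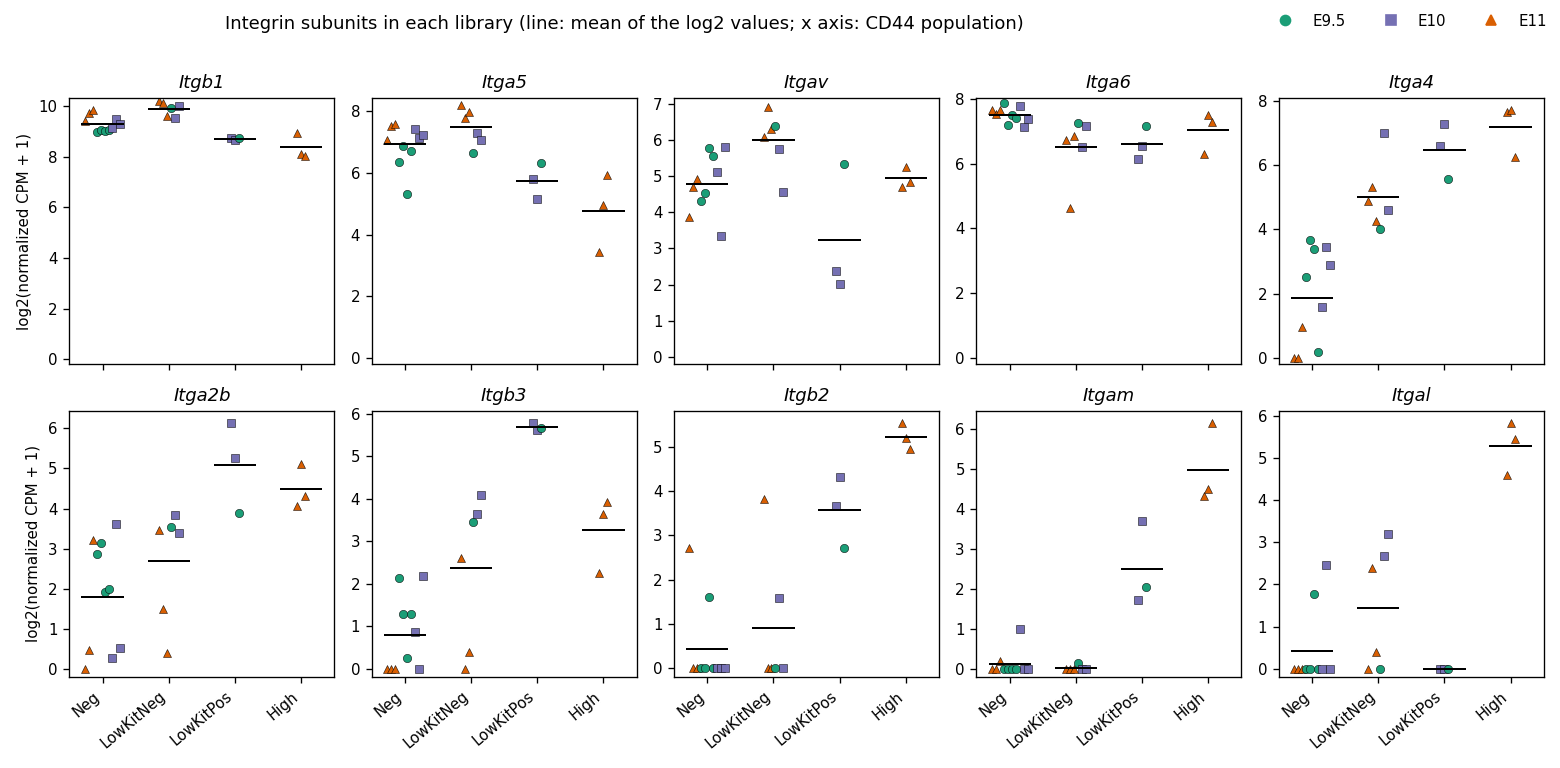
Level of the 10 integrin subunits in each of the 22 libraries, as log2(normalized CPM + 1), by CD44 population, with 1 point per library, its shape and colour giving the embryonic stage and the line the mean of the log2 values. *Itgb1*, *Itga5* and *Itgav* were at their highest mean in CD44LowKitNeg, *Itgb3* at 48.3 to 54.3 normalized CPM in CD44LowKitPos, and *Itgb2*, *Itgam* and *Itgal* at 19.003 or more in all 3 CD44High libraries.

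*Itgb1*, the beta chain that pairs with alpha 4, 5, 6 and V, was measured in every library. It stood at 500.3, 590 and 926 normalized CPM (lowest, median and highest of 10) in CD44Neg and at 752, 999 and 1197 in the 6 CD44LowKitNeg libraries. The 3 CD44LowKitPos libraries had 429, 405 and 426, and the 3 CD44High libraries had 496, 277 and 264. Every CD44LowKitPos library thus lay below every endothelial library, while the ranges of the 2 endothelial populations overlapped, as did those of CD44LowKitPos and CD44High. From CD44LowKitNeg to CD44LowKitPos, *Itgb1* fell by 1.22 on the log2 scale (SE 0.24, adjusted p = 0.00324, here and below by the edgeR quasi-likelihood test unless another tool is named). Within E9.5 and E10 the fall was called too (−1.12, adjusted p = 0.00499), and it lost its call without CD44LowKitPos replicate 17 or 18 (adjusted p = 0.0284 and 0.0176). CD44High was lower than CD44LowKitNeg (−1.50, SE 0.25, adjusted p = 8.2e-05) and than CD44Neg (−0.90, SE 0.23, adjusted p = 0.00507), the latter not called without CD44High replicate 21 or 22 (adjusted p = 0.0429 and 0.0434).

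Between the endothelial populations the *Itgb1* difference was 0.60 (SE 0.16, adjusted p = 0.0103), just outside the threshold of 0.01. It was called with 5 other settings of the processing, with adjusted p from 8.3e-04 to 0.00602, and over all alternatives the adjusted p ran from 8.3e-04 to 0.408. The upper end came from the E11 libraries alone, where the difference was 0.34 (SE 0.23).

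For *Itga5*, the alpha chain of the fibronectin receptor, the lowest, median and highest normalized CPM were 38.9, 136 and 193 in CD44Neg and 99.6, 189.7 and 294 in CD44LowKitNeg. CD44LowKitPos libraries had 55.1, 34.4 and 79.0 and CD44High libraries 9.90, 30.4 and 60.1. Both blood populations lay below every CD44LowKitNeg library but overlapped with CD44Neg, where replicate 6 was the lowest. CD44High was 5.78-fold lower than CD44LowKitNeg (−2.53, SE 0.52, adjusted p = 7.8e-04), and this call held in each of 29 alternatives. Against CD44Neg the difference was 3.93-fold (−1.97, SE 0.49, adjusted p = 0.00403), lost without CD44High replicate 20 or 21 (adjusted p = 0.027 and 0.0205) and under limma voom (0.017). Between CD44LowKitPos and CD44LowKitNeg it was −1.78 (SE 0.50, adjusted p = 0.0199), and between the endothelial populations 0.57 (SE 0.28, adjusted p = 0.17).

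*Itgav*, the vitronectin receptor alpha chain (CD51), had 9.17, 27.0 and 54.7 normalized CPM in CD44Neg and 22.6, 72.1 and 119.5 in CD44LowKitNeg, a difference of 1.21 (SE 0.37, adjusted p = 0.0234). The CD44LowKitPos libraries from E10 had 4.19 and 3.07, while the library from E9.5 had 38.9. CD44High libraries had 25.1, 36.7 and 27.7. The 3 CD44LowKitPos libraries therefore did not form 1 level, and without the E9.5 library, replicate 19, the difference from CD44LowKitNeg went from −2.19 (SE 0.71, adjusted p = 0.0429) to −4.30 (adjusted p = 7.4e-04) and that from CD44Neg from −0.99 (adjusted p = 0.41) to −3.08 (adjusted p = 0.00513). Compared within E9.5 and E10, *Itgav* was called lower in CD44LowKitPos than in CD44LowKitNeg (−2.60, SE 0.59, adjusted p = 0.00953).

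*Itga6*, the laminin receptor alpha chain, was not called in any of the 6 comparisons. It stood at 185 ± 30.1 normalized CPM in CD44Neg (SD, n = 10), 104 ± 45.6 in CD44LowKitNeg (n = 6), 101 ± 36.8 in CD44LowKitPos (n = 3) and 139 ± 54.2 in CD44High (n = 3), and neighbours in the order of the means overlapped. CD44LowKitNeg replicate 12 was the lowest library, with 23.7. CD44LowKitNeg differed from CD44Neg by −0.82 (SE 0.26, adjusted p = 0.0325) and CD44LowKitPos from CD44Neg by −0.86 (SE 0.36, adjusted p = 0.16).

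*Itga4*, the alpha 4 chain that leukocytes and blood progenitors use on VCAM1 and fibronectin, was the 1 of 7 members tested that edgeR called between the endothelial populations, where 10.2% of 11022 genes were called (4.94% higher and 5.23% lower) and the ranges of 5.58% did not overlap. In 25 alternative fits each, *Itgb1* (adjusted p = 0.0103) was called in 9 and *Itgav* in 2. CD44Neg had 0, 3.38 and 11.7 normalized CPM (lowest, median and highest) and CD44LowKitNeg 15.2, 26.1 and 126.7. CD44LowKitPos libraries had 94.8, 154 and 46.4 and CD44High libraries 199, 208 and 75.1. Every library of the CD44-expressing populations lay above every CD44Neg library, and neighbours among those populations overlapped. The rise in CD44LowKitNeg was 9.30-fold (3.22, SE 0.81, adjusted p = 0.00825). It was called within E11 (6.20, SE 1.18, adjusted p = 0.00261) but not within E9.5 and E10 (2.83, adjusted p = 0.0234). Without CD44LowKitNeg replicate 15, which held 126.7, the difference was 2.497 (adjusted p = 0.0488), and without any 1 of 8 other libraries (CD44Neg replicates 3, 4, 7, 8 and 10 and CD44LowKitNeg replicates 11, 12 and 16) the adjusted p was between 0.0108 and 0.0151. The 10 blood markers summed to 82.7 to 160.6 normalized CPM in CD44Neg and 184.6 to 487 in CD44LowKitNeg. Their part in the rise of *Itga4* there was not tested.

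Against CD44Neg, *Itga4* was 21.8-fold higher in CD44LowKitPos (4.45, SE 0.79, adjusted p = 8.5e-04, lost without replicate 18 with 0.0106) and 35.7-fold higher in CD44High (5.16, SE 0.79, adjusted p = 3.1e-05). The latter was called in each of 28 alternatives, also within E11 (8.68, adjusted p = 4.6e-05). Against CD44LowKitNeg, neither CD44LowKitPos (1.23, adjusted p = 0.399) nor CD44High (1.94, adjusted p = 0.109) passed the threshold.

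*Itga2b* encodes CD41, and *Itgb3* encodes CD61, its only beta partner. *Itga2b* had 0, 2.90 and 11.2 normalized CPM in CD44Neg and 0.310, 9.78 and 13.4 in CD44LowKitNeg, a difference within the spread of the libraries (0.91, SE 0.93, adjusted p = 0.552). It reached 69.2, 37.6 and 13.7 in CD44LowKitPos and 15.6, 33.8 and 18.8 in CD44High. Both blood populations lay above all 16 endothelial libraries, yet no comparison of *Itga2b* was called by edgeR. The nearest to it was CD44LowKitPos against CD44Neg (3.30, SE 0.90, adjusted p = 0.0228), which was 0.204 without CD44LowKitPos replicate 17 and was called by limma voom (4.13, adjusted p = 0.00179).

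*Itgb3* was at 54.3, 48.3 and 50.2 normalized CPM in CD44LowKitPos, above every library of the other populations. In CD44LowKitNeg it depended on the library, with 0, 7.54 and 15.96 as lowest, median and highest, and in CD44Neg it was 0, 0.495 and 3.57. CD44High libraries had 3.76, 11.4 and 14.1. Its rise from CD44Neg to CD44LowKitPos (5.53, SE 1.08, adjusted p = 0.00212) was not called within E9.5 and E10 (5.06, SE 1.21, adjusted p = 0.0122) or without CD44LowKitPos replicate 17 or 18 (0.011 and 0.0104). With stage as a covariate, *Itgb3* was called higher in CD44High than in CD44Neg (6.38, adjusted p = 9.1e-04, against 3.15 and 0.0362 without it), as it was within E11 (8.83, SE 2.16, adjusted p = 0.00745), where the CD44Neg libraries had 0 counts and CD44High was at least 12.3-fold above the limit of 3 counts. Both chains of the CD41/CD61 pair exceeded 3 counts in 3 of 10 CD44Neg libraries, 4 of 6 CD44LowKitNeg libraries and all 6 libraries of the blood populations. The 12 markers of megakaryocytes and platelets, without the 2 genes themselves, summed to 156 to 444 normalized CPM in CD44LowKitPos and 269.8 to 518 in CD44High but also to 101 to 460.1 in CD44Neg and to 29.9 to 85.7 in CD44LowKitNeg. *Clec1b* took most of the CD44Neg sum, with 92.4 to 459.5, against 2.27 to 91.1 in the blood populations. *Pf4* and *Nfe2* had at most 4.92 and 2.46 in CD44Neg and at least 15.1 and 60.6 in every library of the blood populations, and *Gp6* was at 0 in every population. Their part in the *Itga2b* and *Itgb3* levels was not tested.

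*Itgb2*, the leukocyte beta chain, had counts in 2 of 10 CD44Neg libraries, 2 of 6 CD44LowKitNeg libraries and all libraries of the blood populations. CD44LowKitPos libraries had 11.6, 18.8 and 5.58 normalized CPM and CD44High libraries 45.3, 35.4 and 29.7, without overlap. In the endothelial populations the highest libraries were CD44LowKitNeg replicate 11 with 13.04 and CD44Neg replicate 1 with 5.56, and all others were at 2.05 or less. *Itgb2* rose from CD44Neg to CD44High (5.61, SE 1.53, adjusted p = 0.00863). This call was not stable: it was lost in 15 of 22 fits without 1 library (adjusted p up to 0.0347), with stage as a covariate (0.106), in DESeq2's Wald test (0.0964) and within E11 (4.34, 0.206).

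*Itgam*, the CD11b chain of the complement receptor on myeloid cells, had, summed over libraries, 6 counts in CD44Neg and 1 in CD44LowKitNeg, against 127 in CD44LowKitPos and 436 in CD44High. CD44LowKitPos libraries had 2.33, 12.1 and 3.17 normalized CPM and CD44High libraries 19.003, 21.6 and 70.5. The 2 blood populations did not overlap with each other or with any endothelial library, the highest of which had 1.005. Against CD44Neg, *Itgam* was higher in CD44LowKitPos (5.41, SE 1.01, adjusted p = 0.00143) and in CD44High (8.06, SE 1.07, adjusted p = 4.5e-06). Against the single count of CD44LowKitNeg, the ratio of counts was 269 in CD44LowKitPos (exact 95% interval 47.4 to 10712) and 1523 in CD44High (272 to 60288), and both differences were called (adjusted p = 0.00186 and 1.8e-05). The CD44High calls held in all 28 alternatives, whereas both CD44LowKitPos calls were lost without replicate 18 (adjusted p = 0.0335 against CD44Neg and 0.0129 against CD44LowKitNeg) and within E9.5 and E10 (0.02 and 0.0342).

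*Itgal*, the CD11a chain of lymphocyte function-associated antigen 1, was present in CD44High at 23.2, 56.2 and 43.0 normalized CPM and was not detected at this depth in the 3 CD44LowKitPos libraries, which had 0 counts. CD44High was thus at least 87.6-fold above CD44LowKitPos. In the endothelial populations, 2 of 10 CD44Neg libraries (up to 4.47 normalized CPM) and 4 of 6 CD44LowKitNeg libraries (up to 8.25) had counts. The rest were at 0 like CD44LowKitPos, which was not called different from CD44Neg (adjusted p = 0.274) or CD44LowKitNeg (adjusted p = 0.092). The rise from CD44Neg to CD44High was called (5.85, SE 1.47, adjusted p = 0.00522), but not without any 1 of the CD44High libraries (adjusted p = 0.0116 to 0.0266), with stage as a covariate (0.0118), in DESeq2's Wald test (0.0699) or within E11 (0.0166). Alpha L and its beta 2 partner both exceeded 3 counts in 3 of 3 CD44High libraries and in 0 of 3 CD44LowKitPos libraries, where alpha M and beta 2 both did in 3 of 3. In bulk samples such as these, fewer cells with a transcript and less RNA per cell cannot be told apart.

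The macrophage markers were highest in CD44High, as were these 3 leukocyte genes. *Itgal* did not follow them in CD44LowKitPos, where it had 0 counts. *C1qa*, *C1qb*, *C1qc* and *Adgre1*, which define macrophages, were at 0 in the other 3 populations and at 87.5 to 846 normalized CPM in CD44High, where *Csf1r* had 158 to 559 and *Mrc1* 226 to 669. The CD44LowKitPos libraries held counts of 6 of the 12 markers, led by *Lyz2* with 145 to 212, and the list summed to 168 to 230.0 there, against 0 to 72.4 in CD44LowKitNeg. Granulocyte markers summed to 986 to 7797 in CD44High and to 70.1 to 233 in CD44LowKitPos. In CD44High *S100a8* alone ranged from 0 to 6316 and *Mpo* from 201 to 900, and *Ctsg* and *Ngp* were at 0. The part of macrophages and granulocytes in the levels of *Itgb2*, *Itgam*, *Itgal* and *Itga4* in CD44LowKitPos and CD44High was not tested.

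In all, between CD44LowKitPos and CD44LowKitNeg 2 of 10 members were called (*Itgam* higher and *Itgb1* lower), where 4.26% of 12949 genes were called, 2.55% higher and 1.71% lower. The ranges of 5 members did not overlap there, as those of 16.9% of genes. Between CD44LowKitPos and CD44Neg 3 of 10 were called (*Itga4*, *Itgb3* and *Itgam*, all higher) against 3.48% of genes, 2.08% higher and 1.41% lower, and the ranges of 6 members and of 9.66% of genes did not overlap. CD44High differed from CD44LowKitNeg in 3 members (*Itgam* higher, *Itgb1* and *Itga5* lower), against 16% of genes, 7.79% higher and 8.17% lower, and the ranges of 6 members and of 25.3% of genes did not overlap. It differed from CD44Neg in 6 members (*Itga4*, *Itgb2*, *Itgam* and *Itgal* higher, *Itgb1* and *Itga5* lower), against 14.4% of genes, 7.14% higher and 7.25% lower, and the ranges of 7 members and of 18.8% of genes did not overlap. Between CD44High and CD44LowKitPos 0 of 10 were called by edgeR and DESeq2 and 1 (*Itgal*) by limma voom, against 3.01% of genes called by edgeR (0.780% higher and 2.23% lower), and 1 member had an unadjusted p under 0.05. The ranges of these 2 populations did not overlap for 4 members (*Itgb3* lower, *Itgb2*, *Itgam* and *Itgal* higher in CD44High), and this was so for 23.9% of all genes tested. With stage as a covariate the fitted difference turned for *Itgb3* (1.16, adjusted p = 0.768) and *Itgb2* (−1.10, adjusted p = 0.887). These comparisons share libraries and are not independent of each other. As the members were chosen with earlier results of these data known, the shares of all genes are given for scale only.

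**Figure D2:**
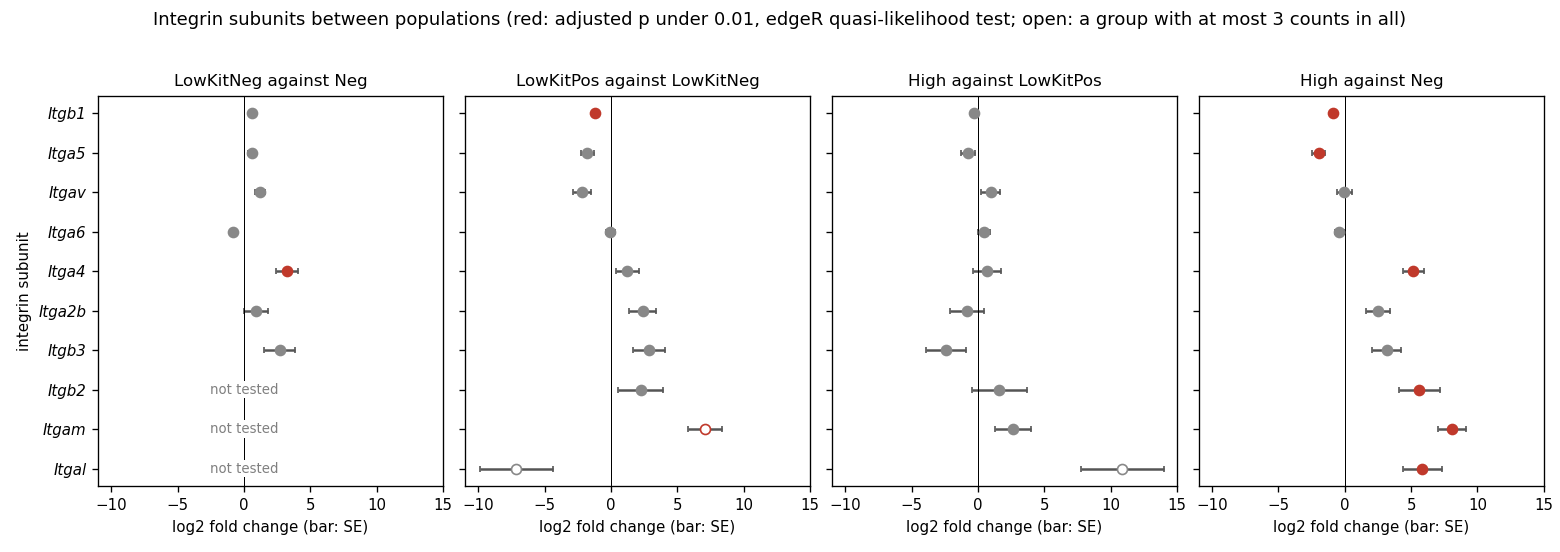
Log2 fold change of the integrin subunits in 4 comparisons of populations, with the standard error as bar, for the 10 genes from top to bottom. Points in red passed an adjusted p of 0.01 in edgeR's quasi-likelihood test, and open points have a population with at most 3 counts in all, so that their size is set by the prior count. *Itga4*, *Itgb2*, *Itgam* and *Itgal* lie to the right of 0 in CD44High against CD44Neg and *Itgb1* and *Itga5* to the left.

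Levels of different genes were compared per kilobase of exon. Among the 7 alpha chains, *Itga5* took 50.4 ± 12.1% (SD, n = 10) of the summed level in CD44Neg, 61.1 ± 12.7% (n = 6) in CD44LowKitNeg, 28.4 ± 9.90% (n = 3) in CD44LowKitPos and 11.6 ± 7.42% (n = 3) in CD44High. *Itga4* went the other way, with 0.727 ± 0.792%, 4.97 ± 5.17%, 18.1 ± 10.6% and 23.4 ± 14.6% in that order. *Itga6* held 41.1 ± 9.38% in CD44Neg and means of 19.995 to 28.1% in the other populations, and *Itga2b* was highest in CD44LowKitPos, with 18.9 ± 13.1%. In CD44High *Itga6* held 27.7 ± 4.28%, and the leukocyte chains *Itgam* and *Itgal* took 13.2 ± 8.47% and 11.2 ± 2.05%.

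Among the 3 beta chains, *Itgb1* was the main one throughout, at 99.7 ± 0.340% in CD44Neg and 99.2 ± 0.708% in CD44LowKitNeg. It still held 89.1 ± 1.82% in CD44LowKitPos, beside 7.47 ± 0.292% of *Itgb3* and 3.42 ± 1.93% of *Itgb2*, and 85.4 ± 2.86% in CD44High, beside 12.6 ± 1.71% of *Itgb2* and 1.99 ± 1.37% of *Itgb3*. The lowest *Itgb1* share in an endothelial library was 98.3%, above the highest in a blood library (91.0%). The 2 minor chains were in opposite order in the libraries of the 2 blood populations, which share no stage. With coding length in place of exon length, *Itga6* (51.3%) passed *Itga5* (36.7%) in CD44Neg and *Itga4* (31.6%) passed *Itga6* (30.8%) and *Itga5* (17.9%) in CD44LowKitPos. In CD44High *Itga4* (36.9 ± 18.9%) then passed *Itga6* (28.9 ± 7.36%), and *Itgam* and *Itgal* took 7.57 ± 6.09% and 7.66 ± 1.85%, so the order of alpha chains within a population depends on the length used. The order of the beta chains in the blood populations was the same with both lengths.

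**Figure D3:**
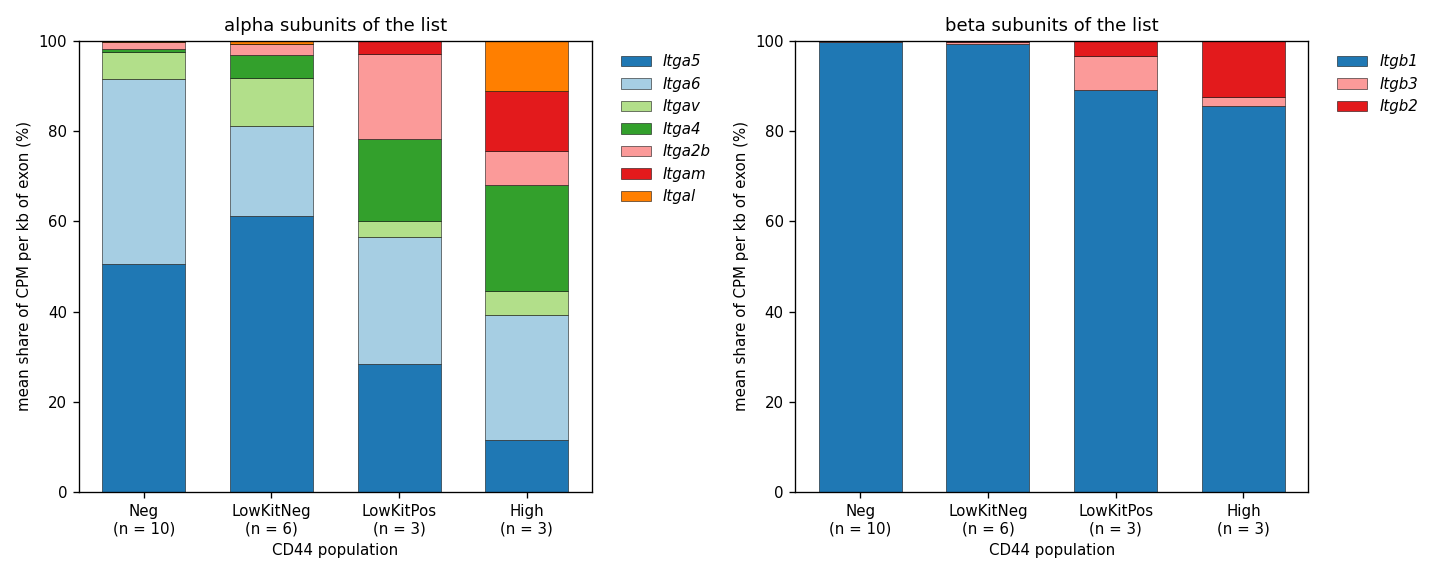
Mean share of each alpha subunit (left) and beta subunit (right) in the summed level of its class, in percent of CPM per kilobase of exon, for the 4 CD44 populations with their number of libraries. *Itga5* takes the largest alpha share in both endothelial populations and *Itgb1* 85.4% or more of the beta level in every population.

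Embryonic stage was compared within CD44Neg and within CD44LowKitNeg, where a string at the end of the sample descriptions changes with stage and cannot be told apart from it. In CD44Neg, *Itgb1* stood at 500.3 to 541 normalized CPM at E9.5, 558 to 726 at E10 and 686 to 926 at E11, and the E9.5 libraries overlapped with neither later stage. The difference between E11 and E9.5 was 0.65 (SE 0.21, adjusted p = 0.175), and it was called in the fit of CD44Neg libraries alone (0.70, adjusted p = 0.00836). *Itga4* was at 0, 0 and 0.929 normalized CPM in the E11 libraries, against 0.143 to 11.7 at E9.5 and 2.01 to 9.84 at E10. Its difference of −4.04 between E11 and E9.5 (SE 1.15, adjusted p = 0.118) was called by DESeq2's Wald test (−4.16, adjusted p = 0.00593) and by edgeR without a filter (adjusted p = 0.00119). *Itgb3* had 0 counts in all 3 CD44Neg libraries from E11 and 0.186 to 3.41 normalized CPM at E9.5, at least 2.03-fold more on average (adjusted p = 0.206).

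*Itga5* in CD44LowKitNeg was at 222 to 294 normalized CPM at E11 and at 99.6 to 157 before, without overlap (1.004, SE 0.44, adjusted p = 0.217). In CD44Neg it was at 133 to 193 at E11 and 38.9 to 118 at E9.5, again without overlap (0.99, SE 0.41, adjusted p = 0.295). The share of all genes without overlap between stages was not computed, so this separation, and that of *Itgb1* above, has no reference. *Itgb3* in CD44LowKitNeg was at 9.97 to 15.96 before E11 and at 0, 0.310 and 5.11 at E11 (−2.75, SE 1.36, adjusted p = 0.281). With the filter and all 22 libraries, edgeR called 0 of the 10 members between E11 and E9.5 in CD44Neg, where 0.0463% of genes were called and 4 members had an unadjusted p under 0.05. In the same fit, for E10 against E9.5 and E11 against E10, 0 members and 0 genes (0%) were called, with 1 and 3 members at an unadjusted p under 0.05, and DESeq2 called 0 members as well. Between E11 and the earlier stages in CD44LowKitNeg 1.62% of genes and 0 members were called, with 1 member at an unadjusted p under 0.05 and 0 called by DESeq2. The test of whether the endothelial difference depended on stage called 0 members (0.108% of genes), with 1 at an unadjusted p under 0.05, which was *Itga4* (3.37, SE 1.40, adjusted p = 0.391), and 0 called by DESeq2.

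**Figure D4:**
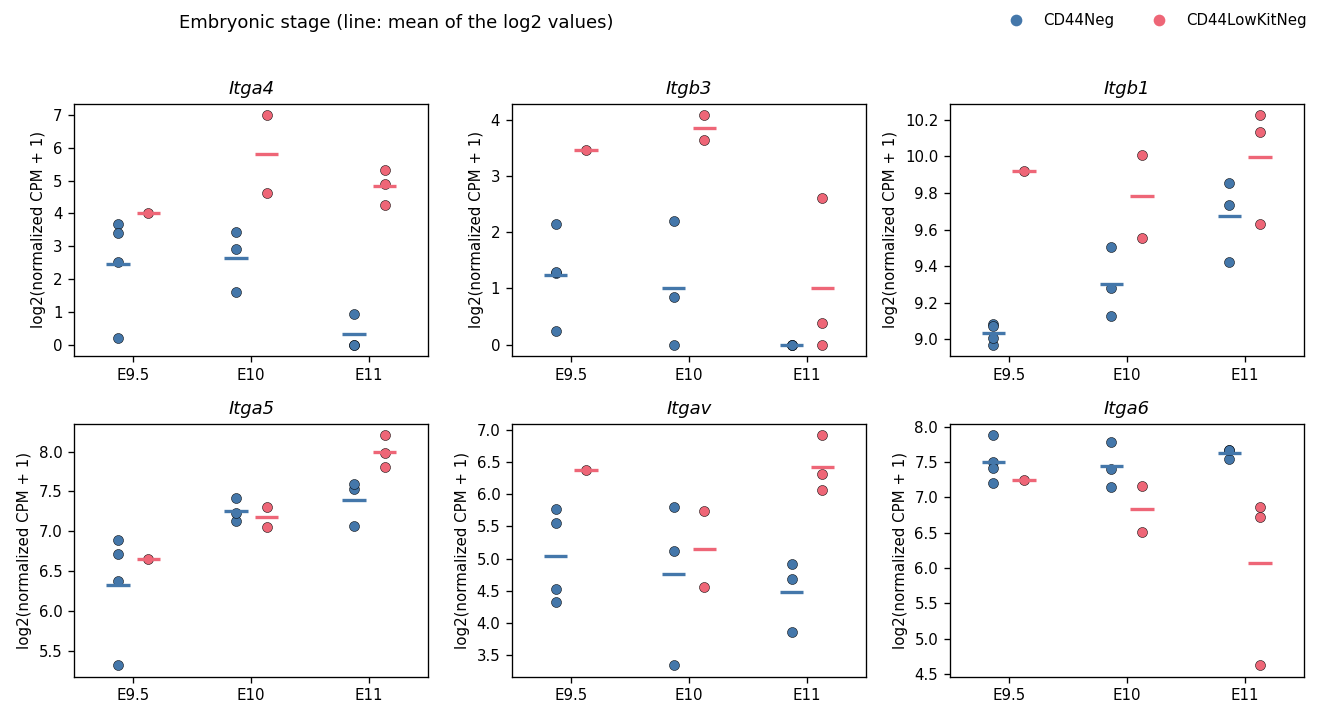
Level of 6 integrin subunits by embryonic stage, as log2(normalized CPM + 1), in the CD44Neg (blue) and CD44LowKitNeg (red) libraries, with 1 point per library and the mean of the log2 values as line. *Itgb1* in CD44Neg goes from 500.3 to 541 normalized CPM at E9.5 to 686 to 926 at E11, and *Itga4* and *Itgb3* are near 0 in the CD44Neg libraries from E11.

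The genes whose log2 CPM was most alike over the 22 libraries are given as a description, and libraries of a population share their depth and sorting. *Itga4* was most like *Cd44* itself (Pearson r = 0.88), the gene of the sort, followed by *Mbnl1* (0.85) and *Ms4a6d* (0.84). *Itga5* was most like *Notch1* (0.95), *Fblim1* (0.94) and *Plec* (0.93), and *Itgb1* was most like *C430049B03Rik* (0.92), *Calu* (0.91) and the collagen gene *Col5a2* (0.90). *Itgb3* was most like *Rab38* (0.88), *Fgfr1op2* (0.86) and *Spi1* (0.85), which encodes the myeloid factor PU.1. *Itgam* was most like *Arl11* (0.97), *Nckap1l* (0.97), a hematopoietic actin regulator, and *H2-Oa* (0.97), while *Itgb2* was most like *Bsn* (0.88), the platelet glycoprotein gene *Gp9* (0.87) and *Cd37* (0.87). *Itgal* was most like *Zeb2os* (0.89) and *Ptprj* (0.85), *Itga2b* most like *Dtwd2* (0.80), *Syngr1* (0.79) and *Was* (0.79), *Itga6* most like *Gng2* (0.89), *Szrd1* (0.84) and *Tsen15* (0.82), and *Itgav* most like *Sat1* (0.83), *Mtus1* (0.81) and *Il2rg* (0.81). Between members the highest correlations were those of the partners *Itgb2* and *Itgam* (0.79), of *Itga2b* with *Itga4* (0.72) and of the partners *Itga2b* and *Itgb3* (0.71), and the lowest was that of *Itgb1* and *Itgam* (−0.77).

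Of 25 ligands of these receptors in the matrix, 19 were tested between the endothelial populations. Of these 19, 7 rose in CD44LowKitNeg and 1 fell, with a median of 0.59 against 0.0050 over all genes, of which 4.94% rose and 5.23% fell. The largest rises among these 7 were those of the fibrillin gene *Fbn1*, from 49.2 ± 27.6 to 643 ± 190 normalized CPM (3.72, SE 0.35, adjusted p = 1.7e-06), of the von Willebrand factor gene *Vwf* (3.54, SE 0.50, adjusted p = 7.0e-05) and of the laminin chain *Lama3* (3.38, SE 0.63, adjusted p = 8.0e-04). Another laminin chain, *Lama1*, fell from 17.1 ± 10.3 to 0.639 ± 1.13 normalized CPM (−4.70, SE 1.02, adjusted p = 0.00278). From CD44LowKitNeg to CD44LowKitPos 8 of 23 fell and 0 rose, against 1.71% and 2.55% of all genes (median −2.55, or −2.48 with genes at 0 in a population set to their bound, against −0.0208 over all genes), with the largest falls among these 8 in *Fbn1* (−3.89), the collagen gene *Col4a2* (−3.34) and *Lamb1* (−3.13). *Fbln5*, which was not called, had 0 counts in CD44LowKitPos and was at least 455.6-fold higher in CD44LowKitNeg. From CD44LowKitPos to CD44High 8 of 23 fell and 0 rose, against 2.23% and 0.780% of all genes (median −1.44, against −0.0226), among them *Vwf*, which had 0 counts in CD44High and was at least 114-fold higher in CD44LowKitPos. In CD44High 16 of 23 were called lower than in CD44LowKitNeg (8.17% of all genes, and median −4.73 against 0) and 13 lower than in CD44Neg (7.25% of all genes, and median −3.55 against −0.0155), with 2 higher than in CD44Neg, *Postn* and *Fbln5* (7.14% of all genes). *Fbln5* was at 23.9 ± 21.3 normalized CPM in CD44High and at 212 ± 241 in CD44LowKitNeg. Mesenchymal markers summed to 0.465 to 105 normalized CPM in CD44Neg, 158 to 293 in CD44LowKitNeg, 133 to 270.5 in CD44LowKitPos and 0.272 to 834 in CD44High. *Acta2*, a gene of smooth muscle cells, was the highest of these markers in every library of CD44LowKitNeg (76.5 to 289) and CD44LowKitPos (117 to 270.3), and *Col1a1* and *Lum* were at 0 in both. The part of these markers in the differences of the matrix genes was not tested.

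Of 11 counter-receptors on cell surfaces, 7 were tested between the endothelial populations and 0 were called, where 10.2% of all genes were (median 0.38, against 0.0050). In CD44High 1 of 9 rose and 3 fell against CD44LowKitNeg, where 7.79% of all genes rose and 8.17% fell, with a median of −3.29, or −3.02 with genes at 0 in a population set to their bound. The junction protein *F11r* (435 ± 131 normalized CPM in CD44LowKitNeg and 27.9 ± 15.4 in CD44High, −3.96, SE 0.43, adjusted p = 3.6e-07) and *Icam2*, a ligand of alpha L beta 2 (694 ± 302 and 44.9 ± 4.89, −3.95, SE 0.53, adjusted p = 6.8e-06), fell in CD44High. *Icam2* was also the 1 of 9 that fell from CD44LowKitNeg to CD44LowKitPos (159 ± 164, −2.13, SE 0.48, adjusted p = 0.00592), where 1.71% of all genes fell. *Icam4*, an erythroid ligand of leukocyte integrins, had 0 counts in both endothelial populations and 27.8 ± 15.7 normalized CPM in CD44High, at least 34.9-fold above CD44Neg. Erythroid markers moved with it, with sums of 2.61 to 23.7 normalized CPM in CD44Neg, 21.5 to 61.3 in CD44LowKitNeg and 58.8 to 285 in CD44High, and their part was not tested. The mucosal ligand *Madcam1* had 0 counts in CD44High, at least 57.2-fold below CD44LowKitNeg.

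Among 33 tested genes of integrin activation and adaptors, 3 rose and 4 fell in CD44LowKitPos against CD44Neg, where 2.08% and 1.41% of all genes did. In CD44High 7 rose and 7 fell against CD44Neg, where 7.14% and 7.25% of all genes did. The medians were −0.22 and −0.21, against −0.0107 and −0.0155 over all genes. *Fermt3*, the kindlin of blood cells, had 0.985 ± 1.55 normalized CPM in CD44Neg, 46.1 ± 30.9 in CD44LowKitPos (5.49, SE 0.78, adjusted p = 8.2e-05) and 254 ± 73.0 in CD44High (7.95, SE 0.81, adjusted p = 1.2e-07). *Fyb*, an adaptor of lymphocytes and platelets, rose in CD44LowKitPos (4.25, SE 0.92, adjusted p = 0.00439) and in CD44High (9.22, SE 0.94, adjusted p = 1.2e-07), as did the focal adhesion kinase relative *Ptk2b* in CD44LowKitPos (6.51, SE 1.35, adjusted p = 0.00335). The adaptor gene *Bcar1* fell from 59.0 ± 31.9 in CD44Neg to 5.26 ± 4.18 in CD44LowKitPos (−3.48, SE 0.65, adjusted p = 0.00143) and 1.0006 ± 0.748 in CD44High (−5.88, SE 0.79, adjusted p = 5.8e-06), and *Parvb* fell in CD44High (−3.75, SE 0.69, adjusted p = 2.7e-04). *Dab2*, an endocytic adaptor, fell from 111 ± 32.8 normalized CPM in CD44Neg to 10.1 ± 6.97 in CD44LowKitPos (−3.46, SE 0.44, adjusted p = 2.9e-05) and was at 527 ± 187 normalized CPM in CD44High, above CD44LowKitPos (5.71, SE 0.53, adjusted p = 1.8e-07). The macrophage markers were also highest in CD44High, and their part in the levels of *Fermt3*, *Fyb* and *Dab2* there was not tested. Between the endothelial populations, where 4.94% of all genes rose, 2 of 28 did, *Kank1* (2.32, SE 0.46, adjusted p = 0.00135) and *Sh2b3* (1.37, SE 0.18, adjusted p = 3.9e-05).

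Of the 10 membrane partners of integrins, 2 rose and 2 fell in CD44High against CD44Neg, where 7.14% and 7.25% of all genes did (median −0.15). *Cd47*, the integrin-associated protein, rose from 104 ± 72.5 normalized CPM in CD44LowKitNeg to 366 ± 119.8 in CD44LowKitPos (1.81, SE 0.36, adjusted p = 0.00307) and was at 402 ± 57.5 in CD44High (1.94 against CD44LowKitNeg, SE 0.36, adjusted p = 2.8e-04). The tetraspanin gene *Cd63* rose in CD44LowKitNeg (1.46, SE 0.21, adjusted p = 8.9e-05), CD44LowKitPos (1.22, SE 0.24, adjusted p = 0.0022) and CD44High (1.76, SE 0.24, adjusted p = 5.0e-06) against CD44Neg, and *Cd81*, another tetraspanin, fell in all 3 (−0.81, −1.10 and −1.92, with adjusted p of 0.00266, 0.00627 and 6.8e-06). *Cd151*, the tetraspanin that binds laminin receptors, fell in CD44High against CD44Neg (−2.47, SE 0.44, adjusted p = 1.6e-04).

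Of 16 other integrin subunits, 7 were tested between the endothelial populations, with 0 called (10.2% of all genes were), and 9 in the other comparisons. In CD44High 1 of 9 rose and 2 fell against CD44Neg (7.14% and 7.25% of all genes), with a median of −3.24, or −2.78 with genes at 0 in CD44High or CD44Neg set to their bound. *Itga9*, another partner of beta 1, had 61.5 ± 18.1 normalized CPM in CD44Neg and 49.5 ± 19.1 in CD44LowKitNeg, and 6.52 ± 6.78 in CD44High, where it fell against both (−3.24, SE 0.63, adjusted p = 4.5e-04, and −2.93, SE 0.64, adjusted p = 0.0013). *Itga3*, a laminin receptor chain, was at 24.4 ± 21.5 in CD44Neg and at 0 in CD44High, at least 29.8-fold lower. *Itgb5*, a partner of alpha V, was the only one that rose, from 0.861 ± 1.29 in CD44Neg to 25.2 ± 12.5 in CD44High (4.84, SE 1.27, adjusted p = 0.0067), where the macrophage markers also were highest, whose part was not tested.

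**Figure D5:**
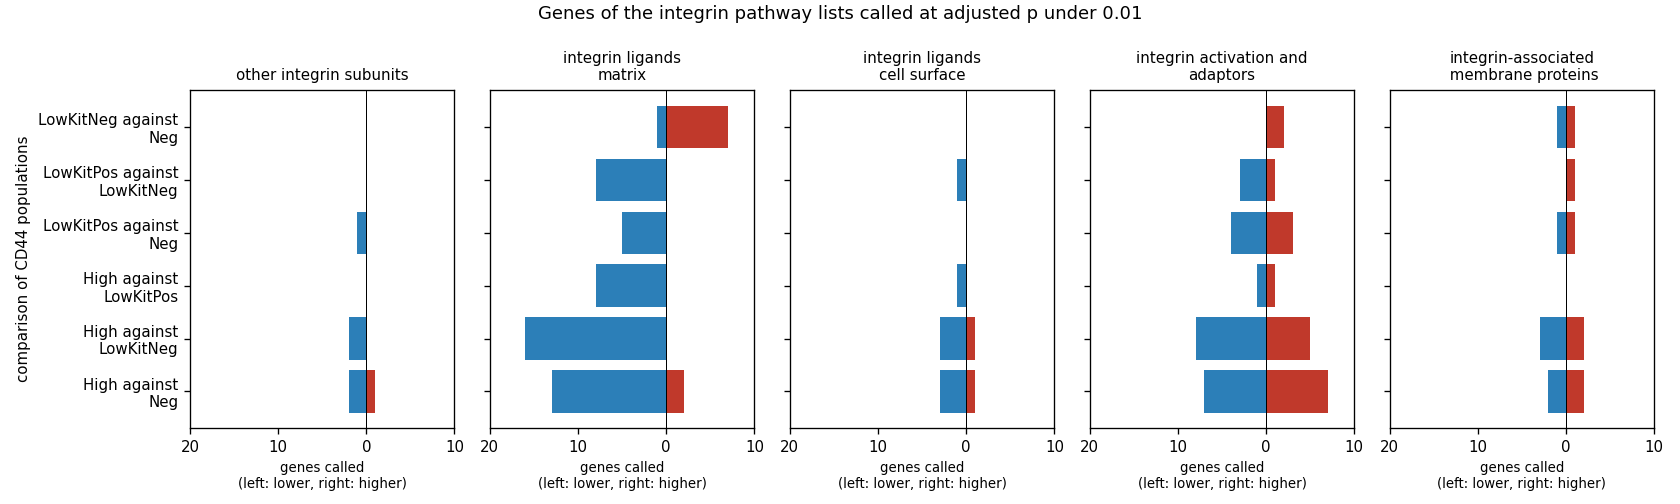
Number of genes of 5 integrin pathway lists called at an adjusted p under 0.01 in each of 6 comparisons of CD44 populations, with genes called lower to the left of 0 and genes called higher to the right. Matrix ligands have 7 rises in CD44LowKitNeg against CD44Neg and 16 falls in CD44High against CD44LowKitNeg.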

How the data were processed

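RNA of 25 sorted cells per library (VE-cadherin positive, divided by CD44 and Kit) was amplified by SMART-Seq2 with 14 PCR cycles and sequenced after Nextera tagmentation. The authors trimmed reads with FASTX, aligned them with RNA STAR, ran htseq-count on the alignments and deposited raw counts per gene. The build, mm10, is from the submitters' processing notes, and tool versions, annotation and strand setting are not given in the sources used here. PCR duplicates cannot be told from separate molecules in these counts. The ribosomal transcript *Rn45s* took 1.92 to 23.9% of a library's counts.

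From the deposited counts, edgeR 4.0.16 in R 4.3.3 was run with filterByExpr (minimum count 10, total 15), TMM scaling and quasi-likelihood tests. CD44LowKitNeg was tested against CD44Neg in these 16 libraries (11022 genes), the other population pairs in all 22 (12949 genes), and stage in a fit with 1 mean per population and stage. Calls were made at a Benjamini-Hochberg adjusted p under 0.01 over all genes tested. In a test on simulated data with 200 changed genes, 122 of the 184 that passed the filter were recovered for CD44LowKitNeg against CD44Neg, with 2 false calls among 10688 genes run. For CD44High against CD44Neg 101 of 193 were recovered (0 false calls, 12548 genes), and for E11 against E9.5 in CD44Neg 74 of 196 (0 false calls, 12505 genes). The planted changes were larger than the *Itgb1* and *Itga6* differences between the endothelial populations, so recovery of differences of that size is not shown. The simulated spread was that within population and stage. Lengths and positions came from GENCODE mouse release M21, the annotation supplied for GRCm38.

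The members and gene lists were chosen with earlier results of these data known. All 10 members are described, and genes named from the pathway lists were taken from the up to 3 largest called increases and 3 largest called decreases per list and comparison, of which a part is described, with the 3 genes most correlated with each member (1 of them is not reported here). Alternatives were DESeq2 1.42.0 size factors and Wald test, limma voom 3.58.1, no filter, a minimum of 10 counts in each library, a covariate for stage, stage-matched libraries, and each library left out. Replicates of a group and stage differed by more than sampling noise in all 20 pairs compared. Figures were drawn with matplotlib 3.10.9 in Python 3.11.15.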

Additional observations from a re-analysis of the deposited data

Results flagged for a closer look

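In 5 of the 20 sets of 6 or 10 libraries tested (each member in CD44LowKitNeg and in CD44Neg), 1 library lay far from the others of its population by Dixon's test. The chance rate of that test, about 1 of 20, does not hold for sets that are mostly at 0. *Itgb2* and *Itgam* each had 0 counts in 8 of 10 CD44Neg libraries, and in 4 of 6 and 5 of 6 CD44LowKitNeg libraries. The number of flagged sets therefore cannot be set against that rate. *Itga4* was at 126.7 normalized CPM in CD44LowKitNeg replicate 15, where the other 5 libraries had 15.2 to 39.1. *Itgb2* was at 5.56 in CD44Neg replicate 1, where the others had 0 to 2.05, and at 13.04 in CD44LowKitNeg replicate 11, where the others had 0 to 2.01. *Itgam* was at 1.005 in CD44Neg replicate 8, with 5 counts, where the others had 0 to 0.155. It was at 0.116 in CD44LowKitNeg replicate 14, with 1 count, where the others had 0. This last value lies under the limit of 3 counts, and with all others at 0 the test flags any single count, so it says nothing of that library.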

How the results depend on the processing

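No paired analysis was possible because the replicate numbers are unique to each library. Apart from leaving out libraries, 352 of the alternative values of the results kept their direction and side of the threshold, 25 gained and 11 lost a call and 6 turned direction; without 1 library each, the numbers were 1212, 7, 38 and 6. The reversals concerned differences that were not called: *Itga6* in CD44LowKitPos against CD44LowKitNeg (0.10 under limma voom, −0.39 to 0.14 without 1 library), *Itgav* in CD44High against CD44Neg (0.063 under voom, 0.40 within E11, −0.27 to 0.098 without 1 library), and, with stage as a covariate in CD44High against CD44LowKitPos, *Itga2b* (0.24), *Itgb3* (1.16) and *Itgb2* (−1.10); the cause was not tested.

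The number of members called in CD44LowKitNeg against CD44Neg (1) was 4 at an adjusted p under 0.05, 2 with DESeq2 size factors, 2 with stage as a covariate, 3 by DESeq2's Wald test, 2 by voom, 0 within E9.5 and E10 and 0 to 2 without 1 library. For CD44LowKitPos against CD44LowKitNeg (2) it was 4 at 0.05, 4 by DESeq2, 5 by voom and 0 to 3 without 1 library. For CD44LowKitPos against CD44Neg (3) it was 0 with at least 10 counts in every library, which fewer members pass, 5 by voom, 1 within E9.5 and E10 and 0 to 4 without 1 library. For CD44High it was 1 at 0.05 and 1 by voom against CD44LowKitPos (0), 6 by voom against CD44LowKitNeg (3), and 2 with at least 10 counts and 2 to 6 without 1 library against CD44Neg (6). For E11 against E9.5 in CD44Neg (0) it was 1 without a filter, 1 by DESeq2 and 1 in that population alone, and for E11 against E10 (0) it was 1 without a filter. DESeq2 size factors moved the median of all genes in CD44LowKitPos against CD44LowKitNeg to −0.155.

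Coding length was taken from GENCODE, an alternative chosen after seeing the data in place of a protein table. The stage contrast of CD44LowKitNeg without replicate 14 was not run. With 3 libraries in each blood population, 1 library decided several calls.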
